A study of Homo sapiens with 24 samples.

Results

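The CXCL chemokine cluster on the long arm of chromosome 4 holds 8 protein-coding genes that were examined together: CXCL8, CXCL6, CXCL1, PF4, PPBP, CXCL5, CXCL3, and CXCL2, in the order of their transcription start sites (TSSs). They are 8 of 20098 protein-coding genes of GENCODE 44 on chromosomes 1 to 22 and X. They were chosen by name and position, not by a measured value, but with earlier results of these data known. The region around them, from the first to the last gene with 50 kb on each side, is chr4:74556236-75014913 in hg19 (GRCh37) and is called the CXCL interval here. It was read in 11 lists of ChIP-seq peaks for S100A8-Flag and S100A9-Flag.

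MCF-10A is a nontransformed human mammary epithelial cell line. MCF-10A–ER-Src cells carry v-Src fused to the ligand-binding domain of the estrogen receptor, so that 4-hydroxytamoxifen (TAM) switches on the oncoprotein and transforms the cells, whereas ethanol (EtOH) is the vehicle. All libraries come from such cells that also stably express S100A8-Flag or S100A9-Flag, from 24 hours in 1 μM TAM or in EtOH, and from ChIP with an antibody to the Flag epitope. The groups are S100A8-Flag EtOH (n = 2), S100A8-Flag TAM (n = 3), S100A9-Flag EtOH (n = 3), and S100A9-Flag TAM (n = 3), described as biological replicates. Peak lists cannot show whether the cells carry mammary markers, and RNA and Pol II were not analyzed here.

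S100A8 and S100A9 are small calcium-binding proteins that pair with each other and are secreted as an alarmin. The chemokines of the cluster are secreted too. CXCL1, CXCL2, CXCL3, CXCL5, CXCL6, CXCL8 (interleukin-8), and the product that is cleaved from PPBP attract neutrophils through the receptors CXCR2 and, for some of them, CXCR1. PF4 (platelet factor 4) is stored in platelets, as is the PPBP product, and lacks the short amino acid motif that these receptors read. In epithelial cells, CXCL1, CXCL2, CXCL3, CXCL5, CXCL6, and CXCL8 are textbook targets of NF-κB, which binds close upstream of their TSSs.

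That upstream sequence is shown for all members, because it separates those with and without an NF-κB motif. Each line is 70 bases of hg19, 5′ to 3′ on the strand of the gene, from −120 to −51 relative to the main TSS. Capitals mark GGAATTTCC, an NF-κB core motif that was searched on both strands, also as GGAAATTCC.
CXCL8: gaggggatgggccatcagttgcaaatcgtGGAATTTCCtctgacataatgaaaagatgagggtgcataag
CXCL6: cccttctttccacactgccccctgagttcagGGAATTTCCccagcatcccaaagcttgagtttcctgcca
CXCL1: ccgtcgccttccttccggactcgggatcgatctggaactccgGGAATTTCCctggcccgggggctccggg
PF4: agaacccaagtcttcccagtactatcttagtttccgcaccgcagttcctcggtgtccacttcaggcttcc
PPBP: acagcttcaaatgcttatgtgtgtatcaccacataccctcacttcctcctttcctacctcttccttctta
CXCL5: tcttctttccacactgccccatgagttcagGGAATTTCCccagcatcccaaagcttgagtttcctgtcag
CXCL3: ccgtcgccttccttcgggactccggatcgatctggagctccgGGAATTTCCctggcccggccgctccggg
CXCL2: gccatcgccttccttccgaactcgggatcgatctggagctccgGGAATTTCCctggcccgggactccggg

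On the plus strand these stretches are chr4:74606166-74606235 (CXCL8), chr4:74702275-74702344 (CXCL6), and chr4:74734990-74735059 (CXCL1). On the minus strand they are chr4:74847795-74847864 (PF4), chr4:74853958-74854027 (PPBP), chr4:74864445-74864514 (CXCL5), chr4:74904457-74904526 (CXCL3), and chr4:74964963-74965032 (CXCL2). The motif was present in CXCL8, CXCL6, CXCL1, CXCL5, CXCL3, and CXCL2, with its first base between −91 and −77, and not in the stretches of PF4 and PPBP. In the RefSeq table of promoters (build GRCh38.p14), which runs from 250 bases before to 50 bases after a start and holds 7 of the 8 members (not PF4), 6 of 7 had the motif, against 0.461% of 35116 promoters. A match describes letters and is not evidence of binding.

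Over the 120 bases before the TSS, the members fall into groups of close relatives. CXCL1 was 93.4% identical to CXCL2 and 90.8% identical to CXCL3, CXCL3 and CXCL2 were 88.4% identical, and CXCL6 and CXCL5 were 90.9% identical. All other pairs lay between 42.2 and 54.3%. The promoters of CXCL1, CXCL2, and CXCL3 are therefore not independent examples of a sequence.

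Because only uniquely mapped reads entered the peak lists, the share of 32-base words that occur once in the genome was computed for each promoter, defined as 1500 bp upstream to 250 bp downstream of the main TSS. It was 100% for CXCL8, 99.6% for PPBP, 97.2% for CXCL5, 96.2% for CXCL1, 92.9% for PF4, 90.9% for CXCL3, and 89.4% for CXCL2. The promoter of CXCL6 stood apart with 43.1%. Closer to the TSS, from 250 bp upstream to 50 bp downstream, CXCL6 had 94.8% and PF4 the lowest value, 76.7%. The word length was chosen here and is not the read length of the libraries, and longer or paired reads would be placed uniquely over more of these sequences. The part of this in the results was not tested.

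A peak was counted when its q value was at most 1e-07, and its position is that of its summit. Over all chromosomes, the EtOH libraries had 1853 to 4609 such peaks (median 4327) and the TAM libraries 21518 to 40735 (median 24806). The lists give no read numbers, so depth is unknown. A lower depth, weaker binding, and less Flag protein in the nucleus cannot be told apart by them, and this holds for every difference between EtOH and TAM given here. From Western blots, the paper reports a strong rise of both Flag-tagged proteins in the nucleus upon transformation. The part of that rise in the differences given here was not tested.

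In TAM, every library had peaks in the CXCL interval, whereas in EtOH 2 of 5 libraries had 1 peak each. S100A8-Flag had 1 and 0 peaks in EtOH and 9, 6, and 8 peaks in TAM. S100A9-Flag had 1, 0, and 0 peaks in EtOH and 7, 6, and 16 peaks in TAM. The lowest TAM library lay above the highest EtOH library in both proteins. The means were 0.5 ± 0.707 (SD, n = 2) and 7.67 ± 1.53 (SD, n = 3) for S100A8, and 0.333 ± 0.577 (SD, n = 3) and 9.67 ± 5.51 (SD, n = 3) for S100A9.

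**Figure D1:**
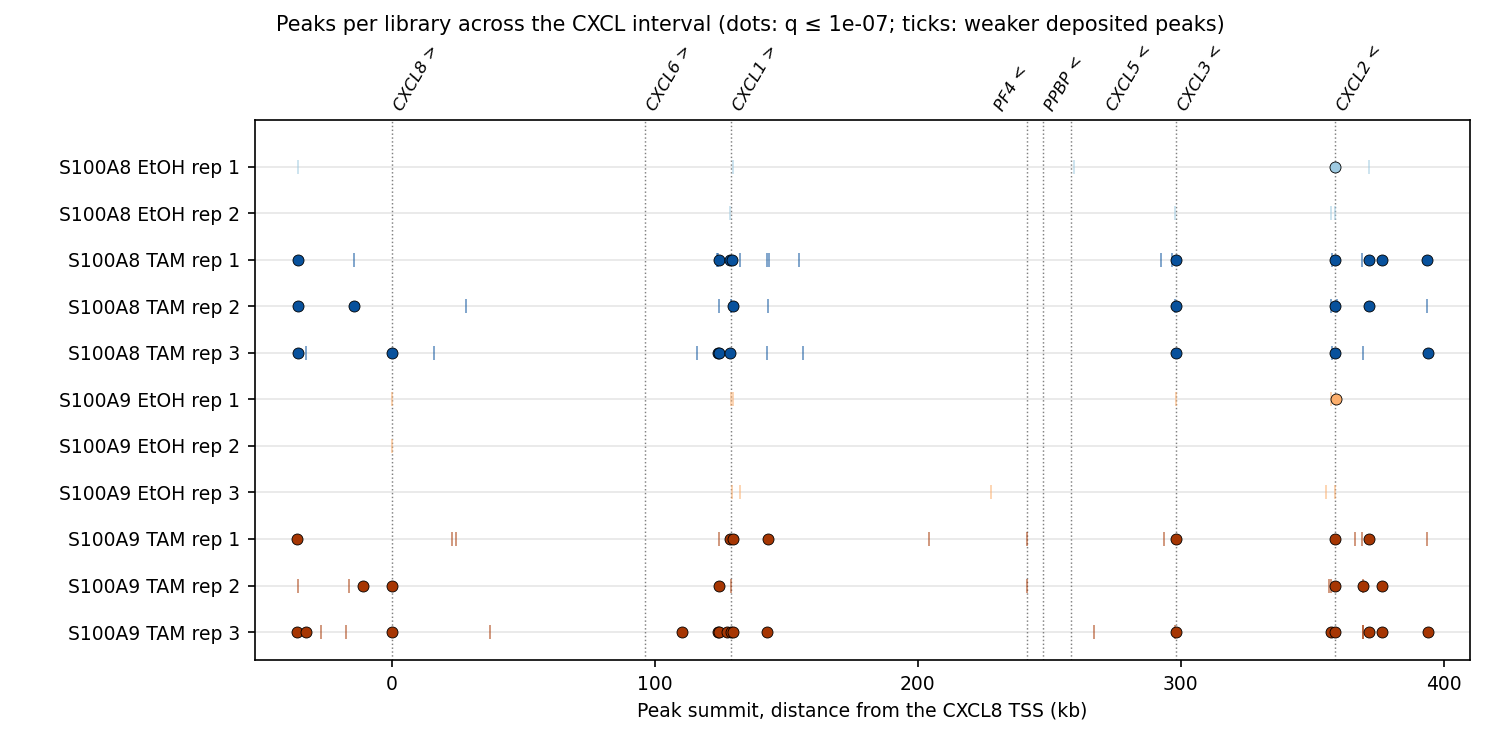
Peaks across the CXCL interval. The horizontal axis is the distance of a peak summit from the CXCL8 TSS in kb, and each row is 1 library. Dots are peaks with q ≤ 1e-07, ticks are weaker deposited peaks, and dotted lines are the TSSs of the 8 members with their direction. Dots cluster at CXCL8, CXCL1, CXCL3, and CXCL2 in the TAM rows, and none lies over CXCL6, PF4, PPBP, or CXCL5.

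TAM libraries had 8.25 more peaks than EtOH libraries over both proteins (p = 0.01 by exact permutation within each protein, two-sided, which is the lowest p that 200 arrangements can give). Within S100A8 the difference was 7.17 (exact p = 0.2, the smallest possible with these numbers), and within S100A9 it was 9.33 (exact p = 0.1, again the smallest possible). Of 5781 genomic windows of the length of the interval that had at least 1 peak, 52.4% likewise had more peaks in every TAM library than in every EtOH library of the same protein. The median window had a mean of 3.33 peaks in TAM and 0.2 in EtOH. A separation of the treatments was therefore common in the genome.

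The difference was not seen in lists of equal length. When only the 1853 peaks with the lowest q value were kept in every library, 1 peak was left in S100A8-Flag EtOH replicate 1 and 1 in S100A9-Flag EtOH replicate 1, no TAM library had any, and the difference became −0.417 (exact p = 0.4). This setting is much stricter in TAM, where the weakest peak kept had a −log10 q value of 20.15 to 30.98, than in EtOH, where it had 7 to 10.13. By q value, the strongest peak of the interval stood at 17.7 and 20.9% of the list in these 2 EtOH libraries, counted from the strongest peak, and between 7.39 and 25.3% in the TAM libraries, so that these ranges overlapped. Ranked by fold enrichment, the median peak of the interval stood between percentiles 34.8 and 68.4 of the peaks in its TAM library.

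Relative to the total number of peaks, the interval held 0.231 and 0 per 1000 peaks in S100A8-Flag EtOH and 0.306, 0.249, and 0.372 in S100A8-Flag TAM. For S100A9-Flag it held 0.278, 0, and 0 per 1000 in EtOH and 0.275, 0.25, and 0.393 in TAM, so that these groups overlapped. The difference in this share was 0.203 per 1000 over both proteins (exact permutation test, two-sided, p = 0.04), 0.193 for S100A8 (exact p = 0.2), and 0.213 for S100A9 (exact p = 0.3). With every peak as deposited, it was 0.0324 per 1000 (exact p = 0.33). It lost its call in 13 of 16 alternative settings, among them the omission of any single library other than S100A9-Flag EtOH replicate 1 or S100A9-Flag TAM replicate 2. On the EtOH side it rests on 2 peaks.

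S100A8 and S100A9 did not differ detectably in the interval. In TAM, S100A9-Flag had 2 more peaks than S100A8-Flag (exact permutation test, two-sided, p = 0.9, where the smallest possible is 0.1), and in EtOH the difference was −0.167 (exact p = 1). Without S100A9-Flag TAM replicate 3, which had 16 peaks in the interval and the longest list of all libraries, the TAM difference was −1.17 (exact p = 0.6). With 3 libraries a group, such a test does not show that the proteins bind alike.

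**Figure D2:**
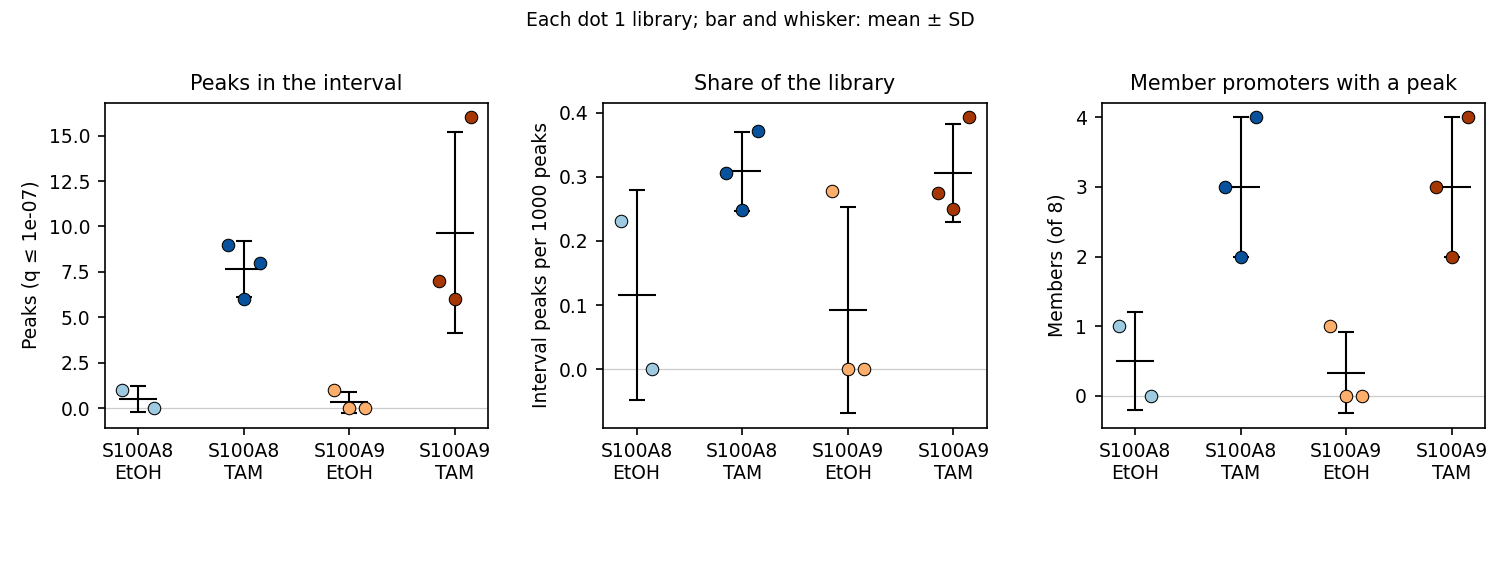
Values per library in the 4 groups. From left to right, the vertical axes are the number of peaks with q ≤ 1e-07 in the CXCL interval, that number per 1000 peaks of the library, and the number of the 8 members with a promoter peak. Dots are libraries, and bars with whiskers are means ± SD. The TAM dots lie above the EtOH dots in the left and right panels and overlap with them for S100A9 in the middle panel.

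At the promoters, a peak was counted for a member when a summit lay within the promoter of any of its annotated transcripts. S100A8-Flag libraries had peaks at 1 and 0 members in EtOH and at 3, 2, and 4 members in TAM. S100A9-Flag libraries had them at 1, 0, and 0 members in EtOH and likewise at 3, 2, and 4 in TAM. The difference between TAM and EtOH was 2.58 members over both proteins (p = 0.01 by the same exact test, again the lowest possible), 2.5 for S100A8 (exact p = 0.2), and 2.67 for S100A9 (exact p = 0.1). It was −0.417 (exact p = 0.4) with the 1853 top peaks of each library.

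CXCL8, CXCL1, CXCL3, and CXCL2 had a promoter peak in at least 1 TAM library, which is 4 of 8 members (50%) against 62.9% of all protein-coding genes. In EtOH, only CXCL2 had one, which is 1 of 8 members (12.5%) against 30.6% of genes. CXCL2 was also the only member with a promoter peak in all 6 TAM libraries, as 15.4% of genes had. None of these shares was above the background. These 4 members are all neutrophil attractants with the NF-κB core motif, but so are CXCL5 and CXCL6, which had no promoter peak at the threshold. For CXCL6, 43.1% of the 32-base words of the promoter were unique, but 94.8% from 250 bp upstream to 50 bp downstream of the TSS. The part of this was not tested.

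Peaks of replicates that overlapped by at least 1 bp were merged, and regions with peaks in at least 2 replicates of a group were joined over the groups. The interval held 11 of the 30322 sites obtained in this way, or 24.0 per Mb, against 9.99 per Mb over the genome and 5.78 per Mb over chromosome 4. The interval was drawn around genes, whereas the genome and chromosome 4 were taken at full length. Windows of like gene content were not compared. Of the 54 peaks in the interval, 44 lay in a site and 10 did not. The 4 sites at the promoters of CXCL8, CXCL1, CXCL3, and CXCL2 made up 36.4% of the sites, and 34.3% of all sites lay at a promoter of some protein-coding gene.

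**Figure D3:**
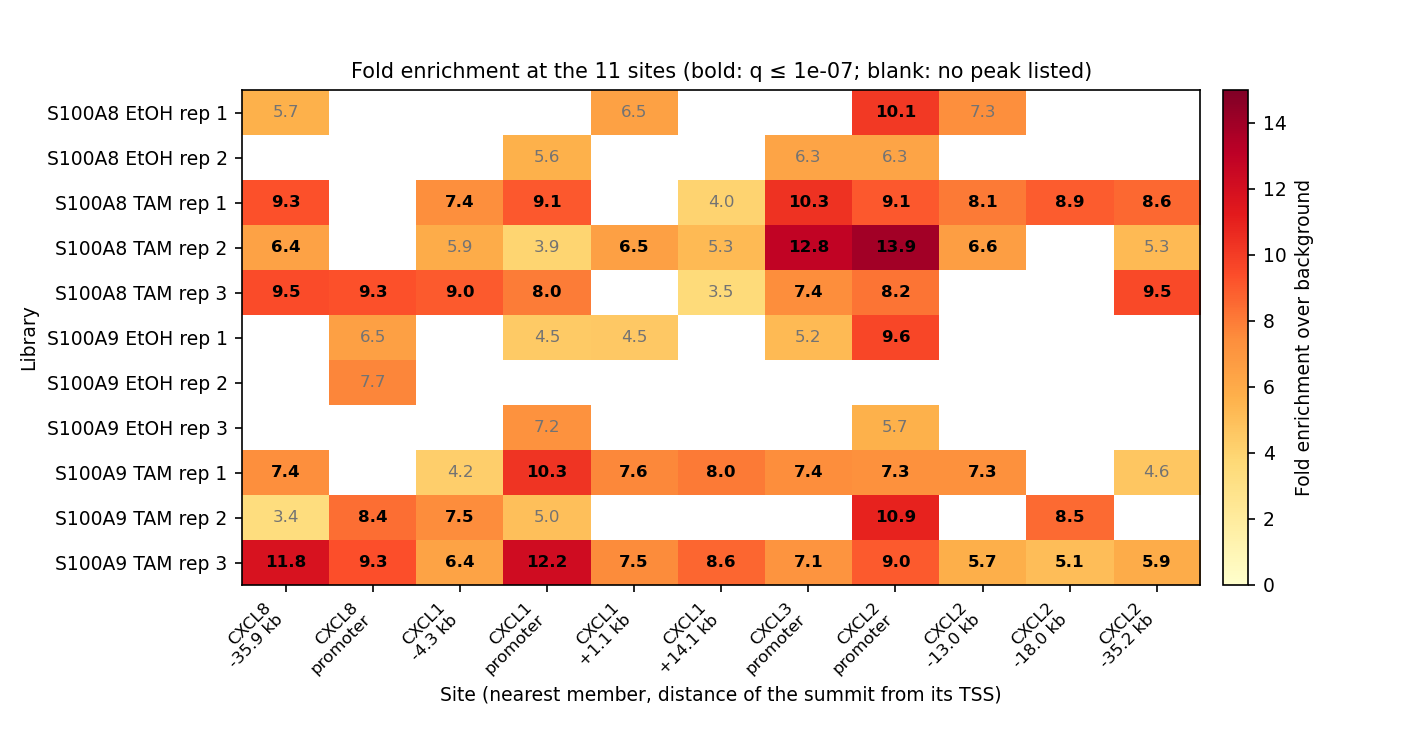
Fold enrichment at the 11 sites in each library. Columns are sites in genomic order, named by the promoter or by the nearest member and the distance of the summit from its TSS, and rows are libraries. The color is the fold enrichment over background that was deposited for the strongest peak at the site, bold numbers have q ≤ 1e-07, and blank cells have no peak in the list. Most bold cells are in TAM rows, the 2 exceptions are at the CXCL2 promoter, and gray numbers show weaker EtOH peaks at other sites.

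The site at the CXCL2 promoter was called in more libraries than any other site of the cluster. It spans chr4:74964783-74965291, with the summit of its highest-ranked peak 31 bp upstream of the TSS in intergenic sequence. Its fold enrichment was 9.08, 13.9, and 8.24 in the S100A8-Flag TAM libraries and 7.31, 10.9, and 8.99 in the S100A9-Flag TAM libraries. All of them passed the threshold.
In EtOH, S100A8-Flag replicate 1 had a fold enrichment of 10.1 and S100A9-Flag replicate 1 had 9.61, both past the threshold and within the range of the TAM libraries. S100A8-Flag EtOH replicate 2 and S100A9-Flag EtOH replicate 3 had weaker peaks with 6.28 and 5.66, and S100A9-Flag EtOH replicate 2 listed none. Fold enrichment ranked these EtOH peaks at percentiles 86.9 and 83.2 of their libraries, and the TAM peaks between percentiles 32.6 and 96.8. Fold enrichment was not tested between libraries, since each value is relative to the background of its own library.

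The promoter of CXCL3 was called in 5 of 6 TAM libraries. The site spans chr4:74904030-74904660, and its summit lies 85 bp upstream of the main TSS, in an exon of a longer CXCL3 transcript. Fold enrichment was 10.3, 12.8, and 7.42 in S100A8-Flag TAM, and 7.43 and 7.13 in replicates 1 and 3 of S100A9-Flag TAM, whose replicate 2 listed no peak. In EtOH, S100A9-Flag replicate 1 had a promoter peak below the threshold with 5.24. A weak peak of S100A8-Flag EtOH replicate 2 with 6.28 reached the edge of the site, but its summit lay 456 bp downstream of the TSS, outside the promoter. Within this site, 73.3% of 32-base words occur once in the genome, the lowest share of the 11 sites.

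The promoter of CXCL1 was called in 4 of 6 TAM libraries and had a weaker peak in the other 2. The site spans chr4:74734689-74735433 over the TSS and the start of the first exon. Fold enrichment was 9.08, 3.94, and 7.98 in S100A8-Flag TAM and 10.3, 5.02, and 12.2 in S100A9-Flag TAM, where 3.94 and 5.02, both from replicate 2, did not pass the threshold. In EtOH, peaks that did not pass it had 5.63 in S100A8-Flag replicate 2 and 4.49 in S100A9-Flag replicate 1. A further weak EtOH peak that overlapped the site, with 7.22 in S100A9-Flag replicate 3, had its summit 416 bp downstream of the TSS in an intron and thus outside the promoter. The EtOH values at the promoter overlapped with the weaker TAM values.

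At CXCL8, which encodes interleukin-8, the promoter was called in 3 of 6 TAM libraries. The site spans chr4:74606131-74606473, and its summit lies 73 bp downstream of the TSS in the first exon. Fold enrichment was 9.28 in S100A8-Flag TAM replicate 3, 8.41 in S100A9-Flag TAM replicate 2, and 9.33 in S100A9-Flag TAM replicate 3. The other 3 TAM libraries listed no peak there at any strength. S100A9-Flag EtOH replicates 1 and 2 had peaks just under the threshold, with a fold enrichment of 6.55 and 7.69 and −log10 q values of 6.25 and 6.30 against the required 7. The presence of a peak at CXCL8 thus did not separate the treatments when weaker peaks were counted, with 2 of 5 EtOH and 3 of 6 TAM libraries.

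The summits were spread over the promoters rather than stacked at one position. Over the libraries that called the site, they covered 280 bp at CXCL2 (8 libraries), 240 bp at CXCL1 (4), 197 bp at CXCL8 (3), and 149 bp at CXCL3 (5). The center of the NF-κB core motif lies at −87 for CXCL8, at −74 for CXCL1 and CXCL3, and at −73 for CXCL2. The nearest summits were −8 bp from it at CXCL8 (S100A8-Flag TAM replicate 3) and −11 bp at CXCL3 (S100A8-Flag TAM replicate 2). The farthest were 189 bp from it at CXCL8 (S100A9-Flag TAM replicate 2) and −195 bp at CXCL2 (S100A9-Flag EtOH replicate 1). Within 100 bp of the site summit, the motif was present at the CXCL3 and CXCL2 promoters, which is 2 of 4 promoter sites of the cluster against 0.317% of all promoter sites.

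**Figure D4:**
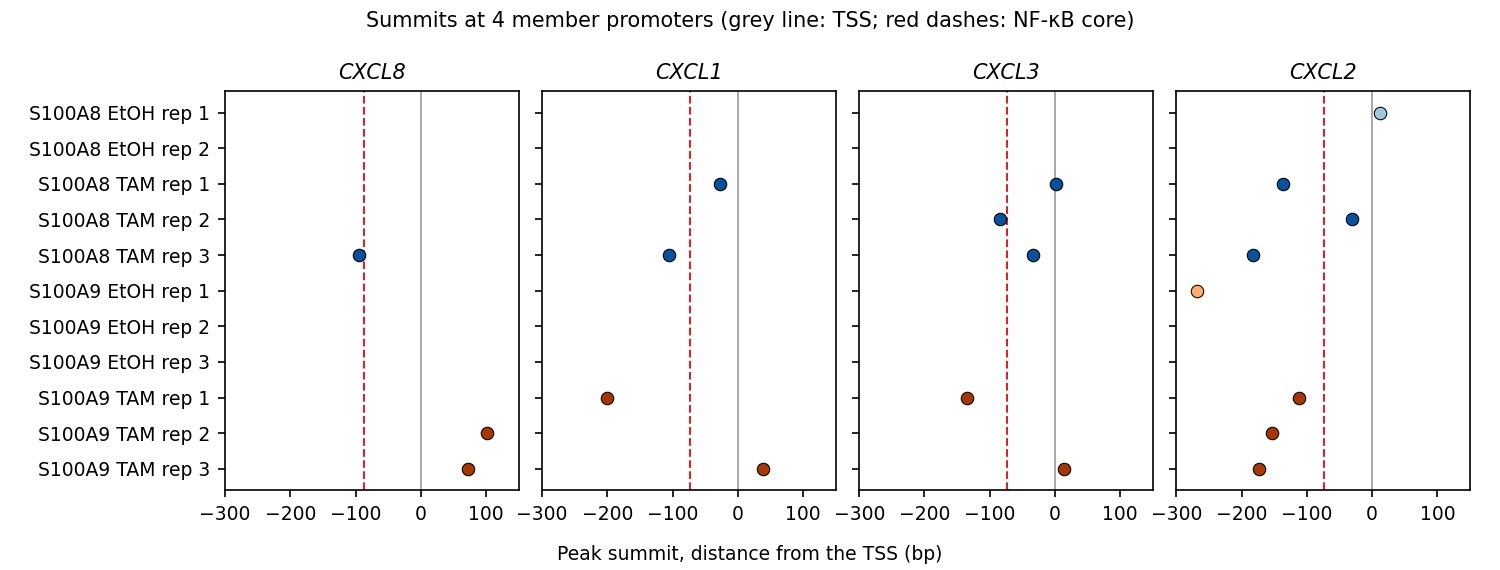
Summits of peaks with q ≤ 1e-07 at 4 member promoters. The horizontal axis is the distance from the main TSS in bp, on the strand of the gene, and each row is 1 library. The gray line is the TSS, and the red dashed line is the center of the NF-κB core motif. Summits lie on both sides of the motif in every panel, from −268 to 102 bp from the TSS.

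The other members had no promoter peak at the threshold in any of the 11 libraries. For PF4, S100A9-Flag TAM replicates 1 and 2 listed weak peaks at the TSS with a fold enrichment of 5.39 and 5.18 and −log10 q values of 3.99 and 4.13. For CXCL5, a neutrophil attractant also known as ENA-78, 1 weak peak was listed, in S100A8-Flag EtOH replicate 1, with a fold enrichment of 7.08. For CXCL6 and PPBP, none of the lists held a promoter peak at any strength.
PF4, PPBP, and CXCL5 lie in the longest stretch of the interval without a called peak. It runs for 155 kb from a summit at 74749193 to a summit at 74904392 and held 15 weaker peaks, 12 of them in TAM, with fold enrichments from 2.91 to 7.08. The called peaks of the cluster lay on both sides of this stretch. None lay over the platelet chemokine genes PF4 and PPBP, nor over CXCL5, a neutrophil attractant with the NF-κB core motif. None lay over CXCL6 either, where the nearest was 14069 bp from the TSS. How common such stretches are in the genome was not tested.

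At the threshold, the 7 sites away from member promoters were called in TAM alone. Of all sites, at promoters or not, 68.9% had no EtOH call. Weaker EtOH peaks were listed at some of the 7 sites, as given below. The 3 that were called in the most libraries are shown, with 50 bases on each side of the summit on the plus strand of hg19. Capitals mark matches to TGAGTCA (AP-1) and to TTGCNNAA (C/EBP), both searched on both strands.
−35.9 kb from the CXCL8 TSS, chr4:74570377-74570477: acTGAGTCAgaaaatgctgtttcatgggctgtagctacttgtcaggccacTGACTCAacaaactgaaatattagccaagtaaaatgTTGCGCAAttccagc
−4282 bp from the CXCL1 TSS, chr4:74730778-74730878: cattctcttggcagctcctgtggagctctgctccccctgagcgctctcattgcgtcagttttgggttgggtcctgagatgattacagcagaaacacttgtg
−12972 bp from the CXCL2 TSS, chr4:74977834-74977934: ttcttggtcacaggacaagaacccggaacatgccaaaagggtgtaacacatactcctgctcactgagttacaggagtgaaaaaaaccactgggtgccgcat

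The first of these, in intergenic sequence upstream of CXCL8, was called in 5 of 6 TAM libraries. Its fold enrichment was 9.30, 6.40, and 9.45 in S100A8-Flag TAM and 7.37 and 11.8 in replicates 1 and 3 of S100A9-Flag TAM. S100A9-Flag TAM replicate 2 had a weaker peak with 3.39, and in EtOH only S100A8-Flag replicate 1 listed one, with 5.66. The AP-1 motif lies 3 bp from the summit and again 45 bp to its left, and the C/EBP motif 39.5 bp to its right. Summits of the 5 libraries fell within 81 bp.

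The site upstream of CXCL1 was called in 4 TAM libraries, with fold enrichments of 7.35 and 8.98 in replicates 1 and 3 of S100A8-Flag and 7.49 and 6.37 in replicates 2 and 3 of S100A9-Flag. The other 2 TAM libraries had weaker peaks with 5.91 and 4.24, and no EtOH library listed a peak of any strength. None of the motifs searched was within 100 bp of its summit, and summits of the 4 libraries fell within 33 bp. A peak of any strength was thus listed at this site in every TAM library and in no EtOH library. As deposited, the TAM lists were longer over the genome, with 53374 to 109395 peaks against 9523 to 34563 in EtOH. How many of all sites show the same pattern was not tested.

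The site upstream of CXCL2, also intergenic, was called in 4 TAM libraries with lower values: 8.07 and 6.57 in replicates 1 and 2 of S100A8-Flag, and 7.31 and 5.74 in replicates 1 and 3 of S100A9-Flag. S100A8-Flag EtOH replicate 1 had a peak with 7.33 and a −log10 q value of 6.61 just under the threshold. That EtOH value lay within the TAM range.

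At −18015 and −35222 bp from the CXCL2 TSS, sites in introns of the neighboring gene MTHFD2L, which encodes a mitochondrial enzyme of folate metabolism, were called in 3 TAM libraries each. They span chr4:74982785-74983006 and chr4:74999936-75000190. Fold enrichment was 8.91, 8.51, and 5.07 at the first and 8.56, 9.5, and 5.89 at the second. Neither had a peak of any strength in EtOH. The first holds an AP-1 motif 13 bp from its summit and the second a C/EBP motif 7.5 bp from its summit.

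Of the 2 sites that are left, one lies in the CXCL1 gene, 1121 bp downstream of the TSS in an intron, and one 14051 bp downstream of that TSS. They fall outside the rule for sites described singly and were added after their values were seen. The intronic site was called in S100A8-Flag TAM replicate 2 and in S100A9-Flag TAM replicates 1 and 3, with 6.51, 7.62, and 7.51, and had EtOH peaks of 6.50 and 4.53 below the threshold. The downstream site was called in S100A9-Flag TAM replicates 1 and 3 alone, with 8.04 and 8.62. All 3 S100A8-Flag TAM libraries had a weaker peak there too, with 4.03, 5.25, and 3.52. Their −log10 q values were 4.27, 5.43, and 2.91, below the required 7. Whether the proteins differ at this site was not tested.

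Over the 7 sites away from promoters, the AP-1 motif lay within 100 bp of the summit at 3, against 34.9% of all sites away from promoters. At the 4 promoter sites it was absent from this window, and 8.31% of all promoter sites had it. The ETS motif CGGAAG was present at 3 of the 4 promoter sites, those of CXCL8, CXCL1, and CXCL2, against 25.4% of all promoter sites, and at none of the other 7, against 6.92%. The C/EBP motif was present at 3 of the 7 sites away from promoters, against 14.9%. The KLF/SP1 motif CCCCGCCC was present at 1 promoter site, that of CXCL3, against 23.1% of promoter sites. A wider NF-κB consensus, which overlaps the core motif, matched at the same 2 promoters as the core, against 4.77% of promoter sites. TTCNNNGAA (STAT), TGACGTCA (CREB), and the CTCF consensus matched at none of the 11 sites, against 5.69, 1.18, and 11.1% of all sites.

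Over all 11 sites, 10 were called in no EtOH library (90.9%), against 68.9% of all sites, and 10 were called by both proteins in TAM (90.9%), against 77.6%. Only the CXCL2 promoter was called in all 6 TAM libraries, as were 14.3% of all sites. No site was called more often in EtOH than in TAM, and none was called in 3 or more libraries of one protein and none of the other. Of the 10 sites without an EtOH call, 6 had a weaker peak in at least 1 EtOH library, so the absence of a call is not the absence of signal. S100A9-Flag TAM replicate 3 called all 11 sites, and 7 sites were left without it, 6 of them with no EtOH call.

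In all, the EtOH lists held 21 peaks of any strength in the interval. Of these, 15 lay at one of the 11 sites, and 2 passed the threshold. With every peak as deposited, the interval held 5 and 4 peaks in S100A8-Flag EtOH and 20, 14, and 15 in S100A8-Flag TAM. For S100A9-Flag it held 6, 1, and 5 in EtOH and 16, 13, and 23 in TAM. The groups remained apart in both proteins, with a difference of 12.6 peaks (exact permutation test, two-sided, p = 0.01).

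Other genes of the same system were read at their promoters for comparison. Their lists were drawn up by function, with earlier results of these data known. Of 9 other CXC chemokines, 2 had a promoter peak in a TAM library. These were CXCL12, the ligand of CXCR4, with 2 of 6 TAM and 1 of 5 EtOH libraries, and CXCL14, an epithelial chemokine, with 5 of 6 TAM and 1 of 5 EtOH libraries. PF4V1, a close relative of PF4 that lies inside the CXCL interval between CXCL6 and CXCL1, had none. CXCL9, CXCL10, CXCL11, CXCL13, CXCL16, and CXCL17 also had none, among them the interferon-induced CXCL9, CXCL10, and CXCL11 elsewhere on chromosome 4. Of 8 receptor genes, only CXCR4 had a promoter peak, in 1 TAM library, and the receptors CXCR1 and CXCR2 of the neutrophil attractants had none. These shares, too, were below the 62.9% of genes with a promoter peak in TAM.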

How the data were processed

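ChIP-seq libraries of S100A8-Flag and S100A9-Flag were used as deposited peak lists. The authors aligned reads to hg19 with Bowtie2, retained uniquely mapped reads, and called peaks per library with MACS2 against its own input (versions are not given in the sources used here). The fold enrichment, a ratio over local background, and the −log10 q value of a peak are the authors' values in the deposited lists, which reach down to q = 0.05. Depth is unknown. The paper's minimum of 5 raw reads could not be applied, nor a count model run.

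The autosomes and X were used, and peaks had to reach q ≤ 1e-07. Tools were Python 3.11.15, pandas 2.3.3, numpy 2.4.6, pysam 0.24.0, and Biopython 1.88. Genes and TSSs, over all transcripts, were those of GENCODE 44 lifted to GRCh37. Sites required 2 replicates of a group and 1 bp of overlap. Percentiles rank fold enrichment within a library. The highest-percentile peak gives a site's summit. Groups followed the sample labels. Treatments were compared by exact permutation of libraries within protein, with p doubled from the smaller tail. Motifs were matched without mismatch on both strands within 100 bp of summits. Promoters were aligned globally (match 1, mismatch −1, gap −3, extension −1). Merging and tests were checked on simulated data.

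The members and gene lists were chosen with earlier results of these data known. Sites described singly were those at member promoters and the 5 others called in most libraries. The rule also took any with more EtOH than TAM calls, or called in at least 3 libraries of one protein and none of the other. Alternatives were every peak as deposited, q ≤ 1e-10, 1853 top peaks per library, flanks of 0 or 100 kb, other promoter limits (1000 and 100 bp, 5000 and 1000 bp), overlap by 0.5 of the shorter peak, 1 or every replicate, each library left out, and the replicate number as a block. Pol II and input libraries were not used here.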

Additional observations from a re-analysis of the deposited data

How the results depend on the processing

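The rise in interval peaks and in member promoters with a peak kept its direction and its call in 15 of 17 alternatives each. With the 1853 top peaks per library both differences were −0.417 (exact p = 0.4). By construction that setting raises the q threshold far more in TAM than in EtOH libraries. Leaving out single libraries gave 6.67 to 9.17 peaks and 2.33 to 2.83 promoters. The difference in the share of peaks held in 3 of 16 alternatives. It was 0.0324 per 1000 with every peak as deposited, 0.0392 at q ≤ 1e-10, and 0.0907 without a flank, and 0.145 to 0.261 with single libraries left out (exact permutation p from 0.02 to 0.08). The difference between S100A9 and S100A8 in TAM was −1.33 at q ≤ 1e-10 and 0 with the top peaks, and −1.17 to 3.83 with single libraries left out. No test between the proteins passed 0.05.

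The number of sites was 17 with every peak as deposited, 6 at q ≤ 1e-10, 6 without a flank, 0 with the top peaks, 20 with at least 1 replicate, 3 with every replicate, and 7 to 11 with single libraries left out. The number called in no EtOH library was 9 of 17 with every peak as deposited, against 10 of 11 in the main setting. It was 5 at q ≤ 1e-10, 6 without a flank, and 0 with the top peaks. With at least 1 replicate it was 19, with every replicate 2, and with single libraries left out 6 to 10. The cause of these shifts was not tested.

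Deviations from the group mean over the sites correlated between −0.0145 and 0.00489 for 5 same-numbered pairs of an EtOH and a TAM library. The replicate numbers thus gave no sign of a pairing. A pairing is not excluded, since 68.9% of all sites had no EtOH call. With the replicate number as a block, the differences were 8.17 peaks (exact p = 0.0625), 0.188 per 1000 (exact p = 0.125), and 2.33 promoters (exact p = 0.0625), where 0.0625 is the smallest p that 32 sign flips allow, and the difference between proteins was 2 (exact p = 1). Peak lists without read numbers limit all comparisons to called and not called.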
